A study of Mus musculus with 32 samples.

Results

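The blood vessels of the hypothalamus were described through 36 genes of endothelial cells, the blood-brain barrier and the mural cells that wrap the vessels. The genes were given by symbol and found in the deposited table through their Ensembl identifiers, so that 36 of its 55401 rows are described. Each was placed in 1 of 7 roles: junctions, transporters, receptors, endothelial identity, tip and fenestrated vessels, pericytes, and smooth muscle.

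Capillaries of the brain are sealed by tight junctions between endothelial cells. Nutrients therefore cross through carriers, lipophilic compounds are pumped back by ABC transporters, and pericytes on the outer face keep the barrier closed. In the hypothalamus most vessels have this barrier, but those of the median eminence are fenestrated, which lets hormones and blood signals pass. Tip cells are the leading cells of a sprouting vessel, and apelin is one of the genes that mark them.

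RNA of the whole hypothalamus was sequenced from 32 male C57BL/6NTac mice, 1 library per mouse. Gpr101 encodes an orphan receptor on the X chromosome. There were 7 wild-type littermates on control diet (WT_CD), 8 wild-type littermates fed the high-fat diet (WT_HFD), 8 hemizygous Gpr101 knockouts on control diet (KO_CD) and 9 such knockouts fed the high-fat diet (KO_HFD). All mice ate standard chow until 7 weeks of age, and the high-fat diet, with 60% of its energy from fat, was given from then on. The labels call the other diet only control, and how the knockout allele was made is not given in the sources used here. Tissue was taken at 149 or 150 days. Of the 149-day mice, 6 were WT_CD, 5 were KO_CD, 1 was WT_HFD and 1 was KO_HFD, so age followed diet.

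Libraries held 25.3 to 34.2 M reads on genes, and 1 read at the median depth was worth 0.0361 CPM (counts per 1 M reads on genes). Gpr101 gave 96.64 to 108.0 CPM in the 15 wild-type mice, no read in the 8 KO_CD mice and 1 read in all among the 9 KO_HFD mice. The 14 neuropeptides and factors used to check the tissue were all detected and summed to 1071 to 1439 CPM per mouse. In 9 libraries a list of 19 meningeal fibroblast genes (collagens, Dcn and others of the brain's covering) summed to 354.7 to 606.3 CPM, against 136.0 to 265.9 CPM in the other 23. These 9 libraries were 1 of WT_CD, 4 of WT_HFD, 1 of KO_CD and 3 of KO_HFD. The split was made after the data were seen, and some results are also given without these 9.

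Of the 36 genes, 35 were tested, and the exception was Tagln. Changes are log2 fold changes of normalized counts with 1 added, from a limma fit over all 19928 genes tested, and a gene was called at an adjusted p below 0.05. With diet averaged over genotypes, 1 of the 35 genes was called, Apln, which was lower on high-fat diet. Over all genes tested, 0.336% were called in that comparison. No member was called in the other 6 comparisons, where the share of all genes called was 0.00502% for genotype on control diet, 0.00502% for genotype on high-fat diet, 0.0251% for diet in wild type, 0.0351% for diet in knockout, 0.00502% for genotype averaged over diets and 0.00% for the interaction of genotype and diet. With limma-voom the count in those 6 comparisons was also 0.

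At an unadjusted p below 0.05, 6 of the 35 genes stood out for diet averaged over genotypes, beside 11.1% of all genes tested. For diet in wild type there were 7, beside 7.39% of all genes. Diet in knockout gave 2, beside 7.04%. Genotype on control diet gave 0, beside 4.12%, and genotype on high-fat diet gave 1, beside 5.15%. Genotype averaged over diets and the interaction gave 1 each, beside 5.72% and 3.39%. These counts changed without the 9 libraries of high meningeal sum, where 19519 genes were tested. Diet averaged over genotypes then gave 3 (7.98% of all genes), diet in wild type 4 (7.67%) and diet in knockout 4 (5.38%). Genotype gave 4 on control diet (5.27%), 5 on high-fat diet (3.82%) and 3 averaged over diets (3.83%), and the interaction gave 2 (5.06%). The 4 on control diet were Acta2 (0.19), Ly6c1 (0.16), Esam (-0.14) and Foxq1 (-0.29). On high-fat diet the 5 were Vwf (0.24), Kdr (0.20), Cdh5 (0.17), Pdgfrb (0.16) and Flt1 (0.10). None of these was called.

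**Figure D1:**
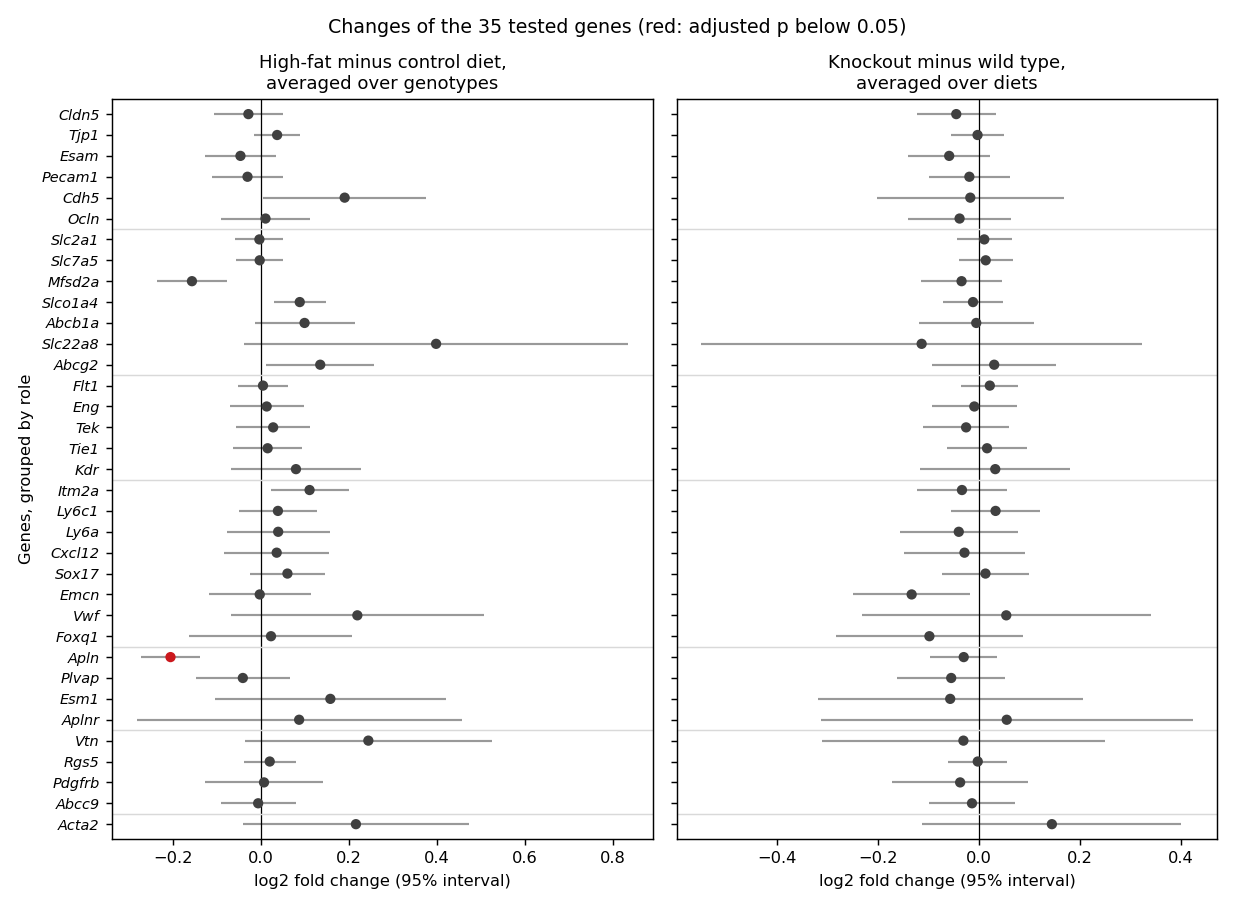
Log2 fold changes of the 35 tested genes with their 95% intervals, for high-fat minus control diet (left) and knockout minus wild type (right), grouped by role. Apln at -0.21 is the 1 gene called (red); Slc22a8 and Aplnr have the widest intervals for diet.

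Apln encodes apelin, a secreted peptide of tip cells that acts through the receptor Aplnr and is also made by neurons, among them vasopressin neurons of the hypothalamus. The gene lies on the minus strand of the X chromosome, GRCm38 chrX:48025146-48034853. In WT_CD mice it ranged from 21.63 to 24.79 CPM (median 23.95), and in WT_HFD mice from 18.48 to 22.07 CPM (median 20.28). In KO_CD mice it ranged from 20.89 to 25.71 CPM (median 22.73), and in KO_HFD mice from 18.02 to 22.59 CPM (median 19.84). The diets overlapped within each genotype, but 5 of 8 WT_HFD mice lay below every WT_CD mouse and 6 of 9 KO_HFD mice lay below every KO_CD mouse.

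Averaged over genotypes, Apln fell by 0.21 on the log2 scale with high-fat diet (SE 0.033, 95% interval -0.27 to -0.14, fold 0.867, limma adjusted p = 0.0003143), the ninth lowest p of all genes. In wild type alone the difference was -0.22 (SE 0.048, limma adjusted p = 0.1) and in knockout alone -0.19 (SE 0.045, limma adjusted p = 0.1114). The interaction, which tests whether the diet difference depended on genotype, was 0.027 (95% interval -0.11 to 0.16, limma adjusted p = 0.9988). Neither genotype comparison of Apln had an interval that excluded 0, with -0.14 to 0.053 on control diet and -0.11 to 0.074 on high-fat diet.

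The Apln difference was as large in the 23 libraries with a low meningeal sum, at -0.20 (limma adjusted p = 0.01392). Age could not be separated from it: with age as a covariate the value was -0.18 (SE 0.043) and the call was lost (limma adjusted p = 0.09658). Among the 150-day knockouts alone, 3 on control and 8 on high-fat diet, Apln differed by -0.16 (SE 0.065, limma adjusted p = 0.997). Only 1 WT_CD mouse was 150 days old and 1 mouse of each high-fat group was 149 days old, so the effect of diet and that of age cannot be told apart. In whole tissue, fewer cells of a type and less RNA per cell cannot be told apart either.

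Vasopressin itself, Avp, moved the other way. It ranged from 242.6 to 349.6 CPM in WT_CD and 278.5 to 496.6 CPM in WT_HFD, and from 220.8 to 337.4 CPM in KO_CD and 249.7 to 378.1 CPM in KO_HFD. For diet averaged over genotypes Avp rose by 0.34 on the log2 scale (SE 0.078, limma adjusted p = 0.0477). Avp was at 0.37 with age as a covariate (limma adjusted p = 0.2418) and at 0.29 without the 9 libraries (limma adjusted p = 0.3248), so neither kept the call. Which cells the lower apelin RNA came from was not tested.

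Mfsd2a encodes the endothelial carrier of lysophosphatidylcholine, through which docosahexaenoic acid enters the brain, and it also holds down transcytosis across the barrier. The gene lies on the minus strand of chromosome 4, GRCm38 chr4:122946850-122961188. Levels ranged from 17.51 to 19.9 CPM (median 18.18) in WT_CD and from 14.61 to 18.42 CPM (median 16.32) in WT_HFD. In KO_CD they ranged from 15.8 to 20.74 CPM (median 17.74) and in KO_HFD from 14.48 to 19.29 CPM (median 16.28). Among wild types 7 of 8 WT_HFD mice lay below every WT_CD mouse, and among knockouts 4 of 9 KO_HFD mice lay below every KO_CD mouse.

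For diet averaged over genotypes Mfsd2a differed by -0.16 (SE 0.040, 95% interval -0.24 to -0.077, limma adjusted p = 0.06495), which missed the threshold. It was -0.19 in wild type (limma adjusted p = 0.4454) and -0.13 in knockout (limma adjusted p = 0.6272). Without the 9 libraries the averaged value was -0.20 (limma adjusted p = 0.05528), and with age as a covariate -0.17 (limma adjusted p = 0.2684). In knockout the difference ran from -0.17 to -0.069 over the alternatives other than leaving out single libraries (limma adjusted p from 0.5304 to 0.997). Diet and age cannot be told apart for Mfsd2a either. Apln and Mfsd2a were the members with the lowest p for diet averaged over genotypes and within each genotype.

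The 250 bases before the start sites of these 2 genes are shown because they are the members with the lowest p for diet. They are taken from RefSeq on GRCm38.p6 and written 5′ to 3′ on the gene's own strand, at chrX:48034854-48035103 (minus strand) for Apln and chr4:122961189-122961438 (minus strand) for Mfsd2a. Capitals mark matches to 5 short motifs searched on both strands.
Apln: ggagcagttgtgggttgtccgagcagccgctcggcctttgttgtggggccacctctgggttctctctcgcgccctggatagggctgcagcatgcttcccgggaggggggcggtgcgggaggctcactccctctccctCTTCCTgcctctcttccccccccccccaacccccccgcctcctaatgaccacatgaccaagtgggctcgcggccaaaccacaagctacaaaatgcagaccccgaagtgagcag
Mfsd2a: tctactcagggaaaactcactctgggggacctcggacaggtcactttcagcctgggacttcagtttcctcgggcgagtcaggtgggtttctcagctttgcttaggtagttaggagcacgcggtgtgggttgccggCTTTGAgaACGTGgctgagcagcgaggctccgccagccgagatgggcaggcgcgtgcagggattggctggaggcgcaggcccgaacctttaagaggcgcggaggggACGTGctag
The Apln window held 1 match to the ETS letters AGGAAG, read on the opposite strand and starting at position -113, where -1 is the base just before the start site. The Mfsd2a window held the hypoxia core ACGTG at positions -107 and -9 and the TCF/LEF letters CTTTGA at -115, all on the gene's strand. None of these matches overlapped another.

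Promoters were matched for 24 of the 36 genes, in 28 windows. AGGAAG was found in 12 of the 28 windows, of 10 genes, and 29.5% of 32851 promoters of the same length held it. CTTTGA was in 5 windows (13.8%), ATTGTT, the SOX letters, in 3 (9.4%) and TATAAA in 3 (12.4%). ACGTG was in 2, those of Mfsd2a and Slc2a1 (16.6%). These are counts of letters in short windows and not of bound sites.

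No other tip-cell or fenestrated gene was called. Plvap forms the diaphragms of fenestrated endothelium and is absent from mature barrier capillaries. It ranged from 9.624 to 12.65 CPM (median 11.65) in WT_CD, 9.436 to 13.28 (12.33) in WT_HFD, 9.817 to 12.82 (11.27) in KO_CD and 9.259 to 12.38 (10.9) in KO_HFD. Its groups overlapped, with 4 of 8 WT_HFD mice above every WT_CD mouse and 1 below all of them, and 4 of 8 WT_HFD mice above every KO_HFD mouse. The diet difference averaged over genotypes was -0.041 (95% interval -0.15 to 0.065).

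Esm1, a secreted proteoglycan of tip cells, was scarce, with medians of 1.152 CPM in WT_CD, 1.424 in WT_HFD, 1.323 in KO_CD and 1.405 in KO_HFD and a range over all mice of 0.5705 to 2.008. Aplnr, the apelin receptor, was scarcer still: medians were 0.3977, 0.4429, 0.4126 and 0.4926 CPM in the same order, and its lowest library held 5 reads. The interval of the diet difference ran from -0.11 to 0.42 for Esm1 and from -0.28 to 0.46 for Aplnr. A fall of the size seen in Apln lay outside the interval of Esm1 and inside that of Aplnr.

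Per kilobase of exon, Apln stood at 7.492 CPM per kb in WT_CD, Plvap at 5.8, Esm1 at 0.5552 and Aplnr at 0.1106. A longer list of tip-cell genes held 13 tested genes, of which 6 were above 0 for diet averaged over genotypes (median -0.017) and 0 were called. Its lowest p values belonged to Nid2, a basement membrane protein (0.24, limma adjusted p = 0.2911), and Sparc, a matrix protein (-0.030, limma adjusted p = 0.4272).

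**Figure D2:**
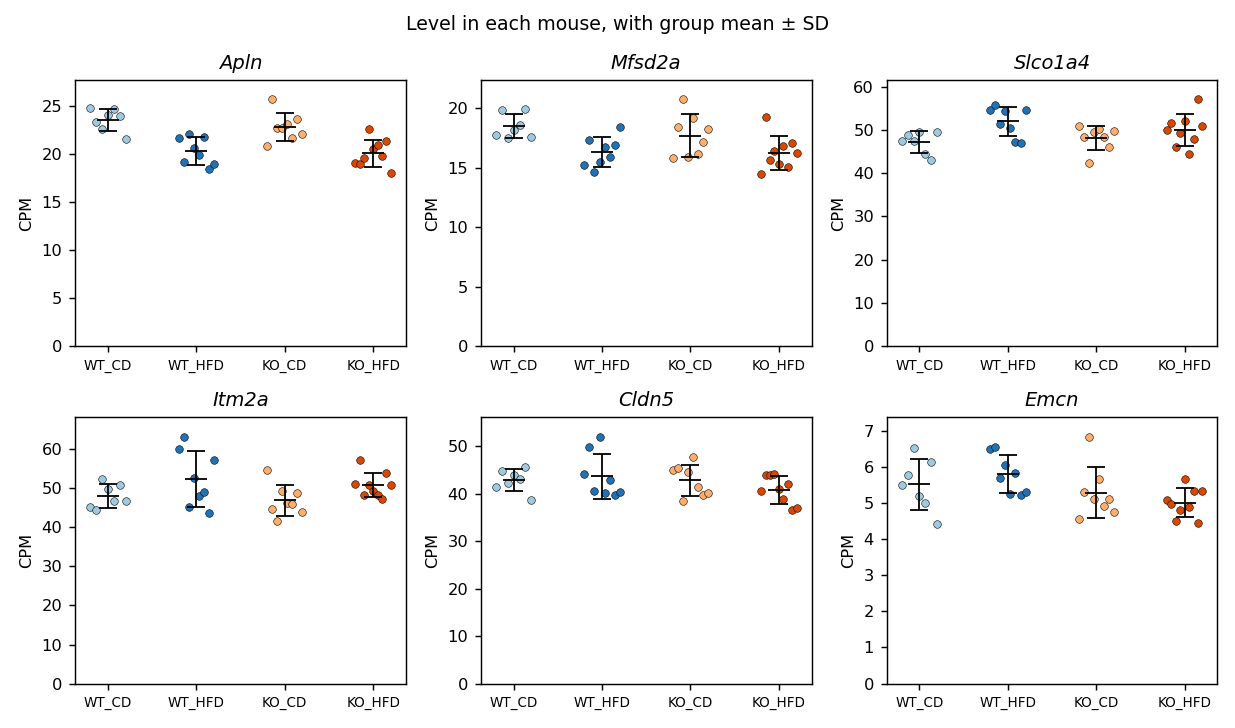
CPM of 6 genes in each mouse, with the mean and SD of each group. Apln and Mfsd2a have lower means in both high-fat groups, but all 6 genes, Cldn5 and Emcn among them, overlap between the diets within each genotype. Only Apln was called for diet averaged over genotypes. Itm2a spans 43.62 to 63.13 CPM within WT_HFD alone.

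Junction genes hold the endothelial sheet together. Cldn5, the main claudin of barrier capillaries, was the highest of them per kilobase at 30.22 CPM per kb in WT_CD, followed by Tjp1 at 13.17, the scaffold that ties claudins to actin. The next were Esam at 4.933, Pecam1 at 2.876, Cdh5 at 2.872 and Ocln at 2.056 CPM per kb. The values of Pecam1 and Cdh5 did not differ beyond their spread.

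Cldn5 ranged from 38.54 to 45.56 CPM (median 43.16) in WT_CD, 39.72 to 51.93 (41.63) in WT_HFD, 38.53 to 47.76 (43.02) in KO_CD and 36.49 to 44.03 (40.86) in KO_HFD. Tjp1 ranged from 96.75 to 105.2 CPM (median 104.1), 97.22 to 115.3 (104.2), 88.89 to 111.3 (102.6) and 95.27 to 116.0 (103.1) in the same order of groups. The 4 groups overlapped for both genes. Intervals of the diet difference were narrow, -0.11 to 0.050 for Cldn5 and -0.016 to 0.089 for Tjp1.

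Esam, an adhesion molecule of endothelial junctions, ranged from 13.32 to 15.16 CPM (median 14.26) in WT_CD, 11.21 to 15.92 (13.44) in WT_HFD, 11.57 to 15.04 (13.19) in KO_CD and 11.5 to 14.1 (13.51) in KO_HFD. Its genotype difference averaged over diets was -0.059 (95% interval -0.14 to 0.022). All 6 junction genes lay below 0 for genotype averaged over diets, with a median of -0.029 and none called. Without the 9 libraries 5 of the 6 did (median -0.0030): Cdh5 was at 0.13 (unadjusted p = 0.0153, limma adjusted p = 0.9998) and Cldn5 at -0.0017. For diet averaged over genotypes 3 of the 6 lay above 0, with a median of -0.0093.

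Among the transporters, Slc2a1, the glucose carrier GLUT1, was highest at 21.29 CPM per kb in WT_CD and Slc7a5, which with its partner chain carries large neutral amino acids, followed at 15.7. Mfsd2a stood at 8.218, Slco1a4, a carrier of organic anions and thyroid hormone, at 7.356 and Abcb1a, the drug pump P-glycoprotein, at 6.008 CPM per kb. Slc22a8, an organic anion carrier also made in the meninges and choroid plexus, stood at 4.394 and the pump Abcg2 at 1.785.

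Slc2a1 ranged from 68.94 to 82.37 CPM (median 74.04) in WT_CD, 69.33 to 81.54 (74.82) in WT_HFD, 71.39 to 82.92 (74.55) in KO_CD and 69.04 to 81.6 (73.85) in KO_HFD. Slc7a5 ranged from 53.64 to 62.85 CPM (median 58.04), 55.36 to 62.84 (60.11), 55.54 to 64.26 (60.67) and 52.02 to 64.27 (58.74) in that order. These carriers of glucose and amino acids had among the smallest spreads between mice, with SDs of 0.083 and 0.08 on the log2 scale. Their 95% intervals for diet averaged over genotypes were -0.058 to 0.051 for Slc2a1 and -0.056 to 0.050 for Slc7a5.

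Slco1a4 ranged from 43.09 to 49.51 CPM (median 47.55) in WT_CD, 47.07 to 55.73 (52.89) in WT_HFD, 42.26 to 50.97 (49.01) in KO_CD and 44.43 to 57.05 (50.02) in KO_HFD. In wild type, 6 of 8 WT_HFD mice lay above every WT_CD mouse. The difference there was 0.13 (SE 0.043, limma adjusted p = 0.5101) and not called, and without the 9 libraries it was 0.058 (limma adjusted p = 0.8137).

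Abcb1a ranged from 30.34 to 36.22 CPM (median 32.52) in WT_CD, 31.54 to 46.83 (35.62) in WT_HFD, 31.41 to 45.08 (32.8) in KO_CD and 32.16 to 41.42 (34.64) in KO_HFD. Its difference by diet in wild type was 0.18 (limma adjusted p = 0.6307), and 0.044 without the 9 libraries. Abcb1a has a close paralog, Abcb1b, at 3.568 to 5.881 CPM over all mice, so reads shared by the copies make its value uncertain. On the other strand Gm42686 shares 10.1% of its exon bases, and was at 0.07075 to 0.485 CPM over all mice.

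Abcg2 ranged from 13.27 to 23.11 CPM over all mice and differed by 0.13 for diet averaged over genotypes (limma adjusted p = 0.4052), against -0.011 without the 9 libraries. Over the 7 transporters, 4 lay above 0 for diet averaged over genotypes (median 0.088), with 2 higher and 1 lower at an unadjusted p below 0.05 and none called.

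**Figure D3:**
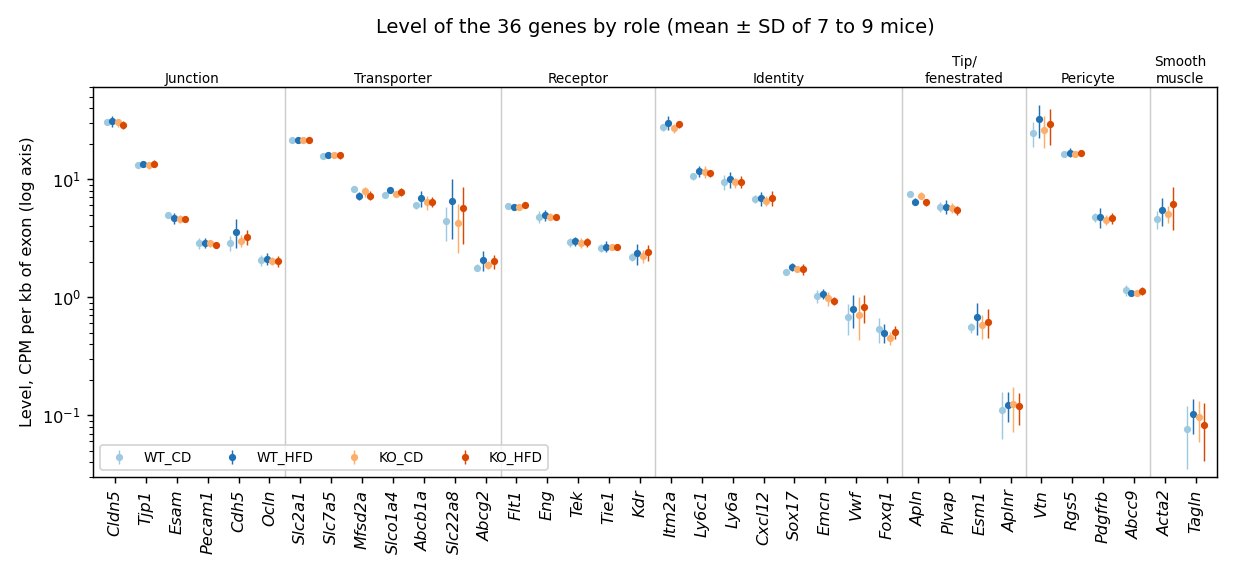
Mean level of the 36 genes in CPM per kb of exon (log axis, bars are SD) in the 4 groups, ordered by role and level. Cldn5, Itm2a, Vtn and Slc2a1 stand highest in WT_CD, at 30.22, 27.52, 24.64 and 21.29 CPM per kb, and Tagln and Aplnr lowest.

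No receptor was called in any comparison. Flt1, a VEGF receptor that also acts as a decoy, was highest at 5.9 CPM per kb in WT_CD, then Eng, a co-receptor of the TGF-beta family, at 4.819, the angiopoietin receptor Tek at 2.926, its partner Tie1 at 2.618 and Kdr, the main signalling receptor for VEGF, at 2.191. Flt1 ranged from 73.93 to 85.86 CPM (median 81.28) in WT_CD, 73.42 to 87.06 (77.75) in WT_HFD, 69.17 to 84.47 (79.01) in KO_CD and 75.18 to 90.28 (80.97) in KO_HFD. Eng ranged from 17.04 to 23.67 CPM (median 18.5), 17.15 to 24.11 (19.91), 17.65 to 21.15 (19.33) and 17.56 to 20.81 (19.64). Their groups overlapped throughout.

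Tek ranged from 12.11 to 16.32 CPM, Tie1 from 11.13 to 15.6 and Kdr from 16.72 to 28.39 over all 32 mice. All 5 receptors lay above 0 for diet averaged over genotypes, but by little: the median was 0.015 and the highest, Kdr, was 0.079 (95% interval -0.069 to 0.23). Without the 9 libraries Kdr was at -0.038. None of the 5 reached an unadjusted p below 0.05 in any of the 7 comparisons with all libraries. Without the 9, genotype on high-fat diet gave 0.20 for Kdr (unadjusted p = 0.02493) and 0.10 for Flt1 (unadjusted p = 0.03495), both with a limma adjusted p of 1.0.

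Of the genes that mark endothelial identity, Itm2a, a membrane protein of brain endothelium, was highest at 27.52 CPM per kb in WT_CD. Ly6c1 and Ly6a, surface proteins anchored to the membrane by a lipid, followed at 10.61 and 9.446, and then Cxcl12, a chemokine, at 6.838. The endothelial factor Sox17 stood at 1.628, the sialomucin Emcn at 1.019, the clotting factor Vwf at 0.6801 and Foxq1, a forkhead factor, at 0.5386 CPM per kb. Ly6c1 has a near-identical copy, Ly6c2, at 0.4168 to 1.64 CPM over all mice, so reads shared by these copies make its value uncertain.

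Itm2a ranged from 44.33 to 52.35 CPM (median 46.72) in WT_CD, 43.62 to 63.13 (50.86) in WT_HFD, 41.56 to 54.73 (46.07) in KO_CD and 47.25 to 57.19 (50.86) in KO_HFD. In knockout, 5 of 8 KO_CD mice lay below every KO_HFD mouse. The diet difference averaged over genotypes was 0.11 (SE 0.043, limma adjusted p = 0.3301), and 0.036 without the 9 libraries.

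Emcn ranged from 4.423 to 6.529 CPM (median 5.501) in WT_CD, 5.225 to 6.558 (5.752) in WT_HFD, 4.555 to 6.828 (5.117) in KO_CD and 4.445 to 5.669 (4.981) in KO_HFD. On high-fat diet 6 of 9 knockouts lay below every wild type. It was the 1 member at an unadjusted p below 0.05 for genotype on that diet, at -0.21 (SE 0.079, limma adjusted p = 0.9477), and the value was -0.11 without the 9 libraries. Averaged over diets its genotype difference was -0.13 (95% interval -0.25 to -0.018, limma adjusted p = 0.8662), and -0.049 without the 9 libraries.

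Ly6c1 ranged from 16.44 to 19.66 CPM (median 17.33) in WT_CD, 15.75 to 22.2 (19.97) in WT_HFD, 16.56 to 24.03 (18.96) in KO_CD and 17.29 to 21.78 (18.3) in KO_HFD. Its interaction of genotype and diet was -0.18 (SE 0.087, limma adjusted p = 0.9988), the lowest p among the members for that test. Sox17 ranged from 7.275 to 8.421 CPM (median 7.853), 7.509 to 9.559 (8.743), 7.722 to 8.822 (8.31) and 7.309 to 10.07 (8.202) in the 4 groups. In wild type 6 of 8 WT_HFD mice lay above every WT_CD mouse for Sox17, and the difference was 0.14 (limma adjusted p = 0.6289).

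Foxq1 ranged from 1.598 to 3.471 CPM (median 2.643) in WT_CD, 1.452 to 2.869 (2.483) in WT_HFD, 1.755 to 2.55 (2.241) in KO_CD and 1.963 to 2.884 (2.462) in KO_HFD. For genotype on control diet it differed by -0.22 (95% interval -0.49 to 0.054). On the other strand A530084C06Rik overlaps 66.1% of its exon bases, and held 0 reads in WT_CD, 1 in WT_HFD, 3 in KO_CD and 1 in KO_HFD. For Sox17, Gm37587 shares 16.8% of the exon bases from the other strand. How reads on shared bases were counted is not given, so the values of Foxq1 and Sox17 are uncertain. Ly6a ranged from 9.41 to 15.81 CPM, Cxcl12 from 44.89 to 74.21 and Vwf from 8.448 to 22.41 over all mice. Of the 8 identity genes 7 lay above 0 for diet averaged over genotypes (median 0.039), with none called.

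Mural cells were read through 4 pericyte genes and 2 smooth muscle genes. Vtn, a secreted adhesion protein made by brain pericytes, was highest at 24.64 CPM per kb in WT_CD, followed by Rgs5, a G-protein regulator, at 16.44, the PDGF receptor Pdgfrb at 4.745 and the potassium channel subunit Abcc9 at 1.143. Acta2, smooth muscle actin, stood at 4.595 CPM per kb.

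Rgs5 ranged from 69.46 to 79.97 CPM (median 74.33) in WT_CD, 68.31 to 90.18 (74.91) in WT_HFD, 67.65 to 80.24 (75.14) in KO_CD and 67.41 to 81.35 (77.27) in KO_HFD. Pdgfrb ranged from 23.39 to 29.23 CPM (median 25.56), 19.55 to 34.0 (26.99), 22 to 29.1 (24.61) and 22.73 to 30.15 (24.86). The 4 groups overlapped for both genes. Intervals for diet averaged over genotypes were -0.039 to 0.079 for Rgs5 and -0.13 to 0.14 for Pdgfrb, and Abcc9, at 7.602 to 10.74 CPM over all mice, had -0.092 to 0.078. The values of Pdgfrb differed without the 9 libraries of high meningeal sum, a split made after the data were seen. Leaving them out removed 4 of the 8 WT_HFD mice, and the part of this in the changed values was not tested. Pdgfrb itself was 24.86 to 34.0 CPM in the 9 libraries and 19.55 to 28.41 CPM in the other 23. Its diet difference in wild type was -0.016 with all libraries and -0.22 without the 9 (unadjusted p = 0.00331, limma adjusted p = 0.4575). Averaged over genotypes it was then -0.11 (unadjusted p = 0.02167, limma adjusted p = 0.5108), and its genotype difference on high-fat diet 0.16 (unadjusted p = 0.03183, limma adjusted p = 1.0).

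Vtn ranged from 43.52 to 76.61 CPM (median 45.31) in WT_CD, 42.48 to 91.21 (64.4) in WT_HFD, 44.18 to 92.0 (46.61) in KO_CD and 43.38 to 104.8 (47.84) in KO_HFD. Acta2 ranged from 8.461 to 13.69 CPM (median 9.587), 8.607 to 17.37 (11.04), 9.21 to 14.02 (11.04) and 8.899 to 24.4 (11.78) in the 4 groups. The 4 groups overlapped for both genes. Diet differences were 0.24 for Vtn (95% interval -0.037 to 0.52) and 0.22 for Acta2 (95% interval -0.041 to 0.47), neither called.

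Tagln, transgelin of smooth muscle, was listed at 0 to 0.2939 CPM, or 0 to 8 reads a library, with medians of 0.1743 CPM in WT_CD, 0.2055 in WT_HFD, 0.2145 in KO_CD and 0.1516 in KO_HFD. It was too low to test. Opposite-strand genes, among them Pcsk7 at 21.82 to 27.25 CPM over all mice, share 67.9% of its exon bases. How reads on shared bases were counted is not given, so the value of Tagln is uncertain.

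The spread between mice differed widely among the genes. Residual SDs on the log2 scale ran from 0.079 for Tjp1 to 0.602 for Slc22a8, with a median of 0.133. Aplnr came next at 0.505, of which counting alone accounts for an SD of 0.439, and was followed by Vwf at 0.395, Esm1 at 0.389, Vtn at 0.387 and Acta2 at 0.354. For Slc22a8, Vwf and Vtn the counting SD was 0.065, 0.081 and 0.037. Of the 35 genes, 14 had a spread above the 90th percentile of genes of like level.

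**Figure D4:**
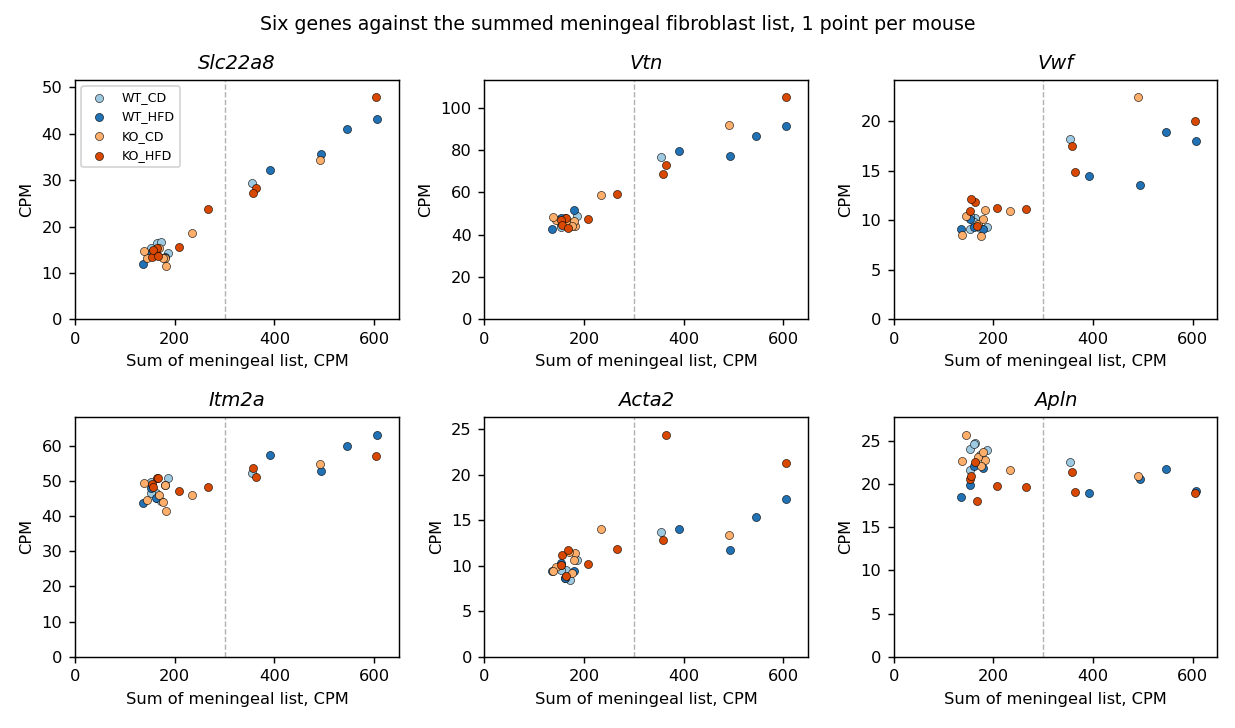
CPM of 6 genes against the sum of 19 meningeal fibroblast genes, 1 point per mouse, with a dashed line at 300 CPM of that sum. Slc22a8, Vtn, Vwf and Itm2a are higher in all 9 mice to the right of the line than in the 23 to its left, Acta2 and Apln overlap across it.

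Slc22a8, Vtn, Vwf and Itm2a differed between the libraries of high and of low meningeal sum. Slc22a8 ranged from 13.9 to 29.35 CPM (median 15.46) in WT_CD, 11.85 to 43.25 (23.29) in WT_HFD, 11.4 to 34.41 (13.97) in KO_CD and 13.55 to 47.79 (15.54) in KO_HFD. In the 9 libraries with a high meningeal sum it was 27.26 to 47.79 CPM, and in the other 23 it was 11.4 to 23.86 CPM, without overlap.

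In the same 9 libraries Vtn was 68.79 to 104.8 CPM, against 42.48 to 59.12 in the others. Vwf was 13.6 to 22.41 against 8.448 to 12.12 CPM. Itm2a was 51.16 to 63.13 against 41.56 to 50.93 CPM. These 4 of the 36 genes were higher without overlap and none was lower, and 0.823% of all genes tested were higher in that way. For Cdh5 the ranges met, at 13.41 to 20.52 against 10.37 to 14.43 CPM, and for Acta2 at 11.76 to 24.4 against 8.461 to 14.02 CPM.

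All 19 tested meningeal genes lay above 0 for diet averaged over genotypes, with a median of 0.65 and none called. Their summed level was 153.2 to 354.7 CPM in WT_CD, 136.0 to 606.3 in WT_HFD, 137.7 to 491.1 in KO_CD and 153.9 to 604.6 in KO_HFD, and none of the genes was at 0. Without the 9 libraries the diet difference of Slc22a8 went from 0.40 to 0.0002, that of Vtn from 0.24 to 0.031, that of Vwf from 0.22 to 0.060, that of Acta2 from 0.22 to -0.015 and that of Cdh5 from 0.19 to 0.026.

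Counts over the members moved too. For diet in wild type 25 of 35 members lay above 0 (median 0.032, all genes -0.0001), and 10 of 35 without the 9 libraries (median -0.026). Genotype on high-fat diet had 9 of 35 above 0 (median -0.024), and 20 of 35 without them (median 0.014). For diet averaged over genotypes the count went from 25 (median 0.028) to 18 (median 0.0002). The number of genes above 0 differed with and without 9 of the 32 libraries, and Apln was at -0.21 with them and -0.20 without. Leaving them out removed 4 WT_HFD, 3 KO_HFD, 1 WT_CD and 1 KO_CD mice. Why the counts moved was not tested.

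**Figure D5:**
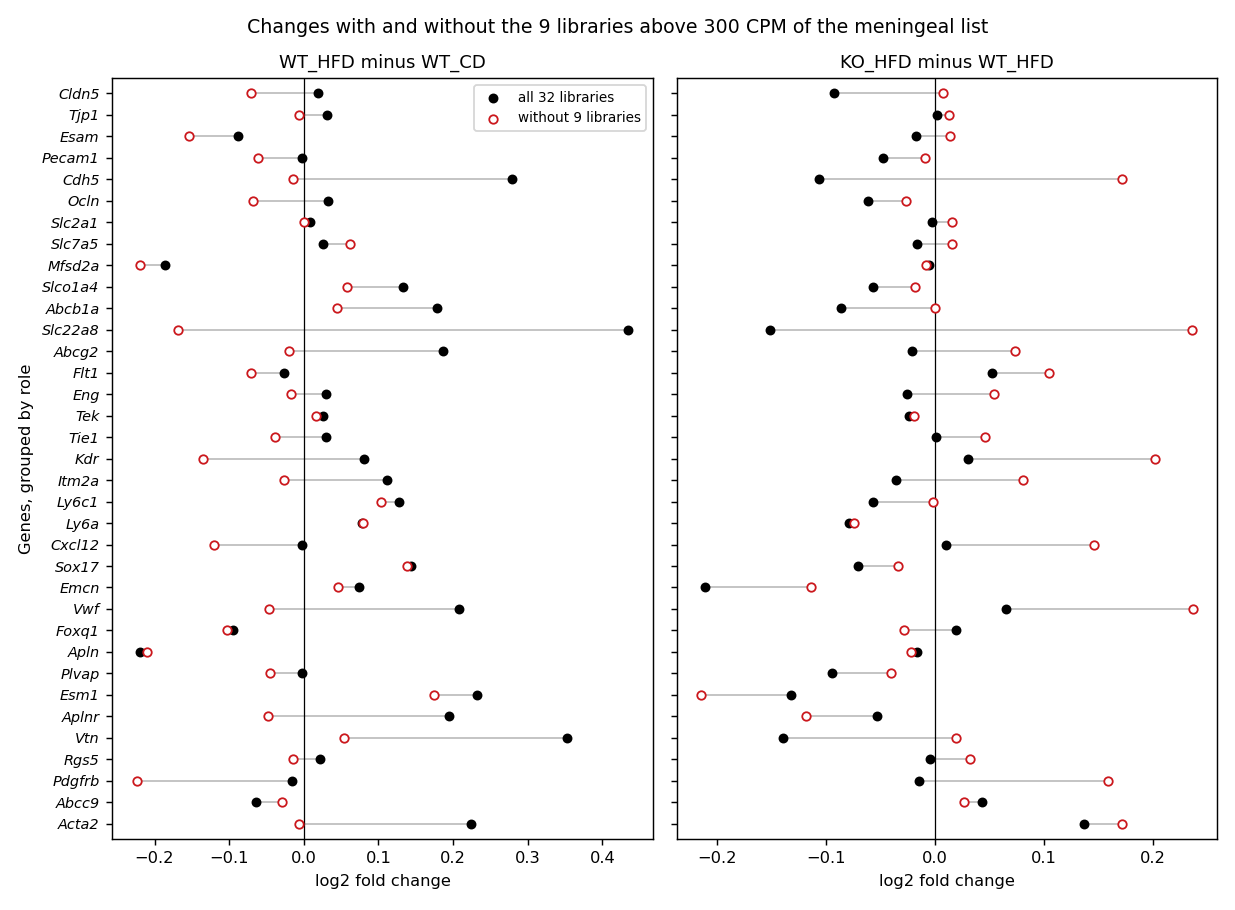
Log2 fold changes of the 35 tested genes for diet in wild type (left) and genotype on high-fat diet (right), with all 32 libraries (black) and without the 9 libraries of high meningeal sum (open red). Genes above 0 went from 25 to 10 of 35 on the left and from 9 to 20 on the right, and Apln and Mfsd2a on the left stayed near -0.2.

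In the other comparisons 21 of 35 members lay above 0 for diet in knockout (median 0.019), 18 for genotype on control diet (median 0.0022), 11 for genotype averaged over diets (median -0.017) and 11 for the interaction (median -0.033). With age as a covariate, 30 of 35 lay above 0 for diet in wild type (median 0.12) and 29 for diet averaged over genotypes (median 0.059).

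Red-cell genes were called with diet. Of 6 tested genes of the blood list, the 4 globins were called higher for diet averaged over genotypes, led by Hbb-bs at 0.62 (limma adjusted p = 0.03814). Hbb-bs was at 0.33 with age as a covariate (limma adjusted p = 0.5206) and at 0.58 without the 9 libraries (limma adjusted p = 0.2314). None of the 4 globins was called in either fit, and over all genes the count called went from 67 to 12 with age and to 15 without the 9 libraries. Diet and age cannot be told apart for these genes either. The blood list summed to 413.6 to 639.6 CPM in WT_CD, 594.3 to 1491 in WT_HFD, 398.7 to 799.8 in KO_CD and 608.8 to 1339 in KO_HFD. The 8 tested perivascular macrophage genes all lay above 0 (median 0.25) with none called and 0 at an unadjusted p below 0.05, at summed levels of 17.33 to 29.42, 16.4 to 39.35, 14.46 to 34.77 and 18.49 to 40.71 CPM in the same order. No gene of either list was at 0 in every library. The part of meningeal, blood or macrophage RNA in the members' diet differences was not tested.

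Relations between members over mice were examined for 8 pairs, on log2 values centred within each group. For 2 pairs with the meningeal list the mice fell into the 2 sets above, so r was taken within each. Slc22a8 followed the meningeal mean with r = 0.682 in the 23 low libraries (permutation p = 0.00099, adjusted over 8 p = 0.00792, rho = 0.42, p = 0.04781). In 7 of the 9 high libraries, those with a second such library in their group, r was 0.967 (exact permutation p = 0.0005952, adjusted p = 0.004762, rho = 0.964, p = 0.002778). For Acta2 r was 0.49 in the 23 low libraries (permutation p = 0.01742, adjusted p = 0.06968, rho = 0.322, p = 0.1331) and 0.384 in the 7 high ones (exact permutation p = 0.3966, adjusted p = 0.4992, rho = 0.464, p = 0.3024), and no r over both sets is given.

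None of the other 6 pairs passed in 32 mice. Pearson's r was 0.295 for Pdgfrb and Rgs5 (permutation p = 0.1017, rho = 0.187, p = 0.3017), 0.157 for Cldn5 and Slco1a4 (p = 0.3904, rho = 0.162, p = 0.3769) and 0.128 for Plvap and Esm1 (p = 0.4879, rho = 0.28, p = 0.1206). It was 0.115 for Acta2 and Tagln (permutation p = 0.5279, rho = 0.071, p = 0.6962) and 0.106 for Apln and Aplnr (p = 0.5643, rho = 0.089, p = 0.625), where Tagln held at most 8 reads a library and Aplnr as few as 5. Plvap and the choroid plexus list gave 0.298 (permutation p = 0.09714, rho = 0.275, p = 0.1281). After adjustment over the 8 pairs the p-values of these 6 were 0.2034 to 0.5643, and without the 2 mice farthest from the median r was 0.175, -0.021, 0.205, 0.129, 0.068 and 0.273 in the order given. The 32 mice hold both sets of libraries. In the 23 low libraries r was -0.007, 0.099, 0.045, -0.026, 0.327 and 0.287 in that order (permutation adjusted p 0.3396 to 0.9745). In the 7 high ones it was 0.335, -0.368, 0.612, -0.388, -0.333 and 0.667 (exact permutation adjusted p 0.3317 to 0.4992). Within mice of 150 days Apln and Aplnr had r = 0.522 (n = 18, permutation p = 0.02762, adjusted p = 0.07365) and within mice of 149 days -0.272 (n = 11, permutation p = 0.4268).

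Around the members, 15 further lists of vascular genes held 212 genes that are no members, of which 199 were tested. One of them was called for diet averaged over genotypes, and it was higher: Slc16a1, the endothelial and glial carrier of lactate and ketone bodies. It ranged from 40.17 to 50.18 CPM in WT_CD and 51.12 to 60.25 in WT_HFD, and from 41.41 to 53.5 in KO_CD and 52.21 to 64.53 in KO_HFD. The diets did not overlap in wild type, and overlapped narrowly in knockout. Slc16a1 rose by 0.31 averaged over genotypes (SE 0.033, limma adjusted p = 4.864e-07), by 0.27 in wild type (limma adjusted p = 0.0137) and by 0.34 in knockout (limma adjusted p = 0.0001159). With age as a covariate Slc16a1 was at 0.30 averaged over genotypes (limma adjusted p = 0.0007119) and without the 9 libraries at 0.33 (limma adjusted p = 1.595e-07), while in wild type the call was lost with age (0.26, limma adjusted p = 0.2288). None of the 199 was called for genotype on either diet, for genotype averaged over diets or for the interaction, where 7, 11, 13 and 9 had an unadjusted p below 0.05, beside 4.12%, 5.15%, 5.72% and 3.39% of all genes. For diet averaged over genotypes 24 were higher and 10 lower at that p, beside 11.1% of all genes, and without the 9 libraries 7 were higher and 20 lower, beside 7.98%. Diet in wild type had 16 higher and 5 lower (7.39%), and 4 higher and 23 lower without the 9 (7.67%). Diet in knockout had 8 higher and 8 lower (7.04%), and 8 and 5 without the 9 (5.38%).

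A list of VEGF, angiopoietin and other vascular ligands had 7 of 12 tested genes above 0 for diet (median 0.021). Vegfa was at -0.044 (limma adjusted p = 0.4052), and Bmp6, which is not a ligand of the VEGF or angiopoietin receptors, at 0.64 (limma adjusted p = 0.5024). The Wnt genes that set up the barrier had 14 of 23 above 0 (median 0.034), with the receptor Fzd4 at 0.15 (limma adjusted p = 0.2273) and the co-receptor Lrp6 at 0.051 (limma adjusted p = 0.4403). Other junction genes had 10 of 19 above 0 (median 0.0046), and other transporters 9 of 21 (median -0.012). Caveolar and transcytosis genes had 6 of 10 above 0 (median 0.038), with Cav2 at 0.076 (limma adjusted p = 0.2464) and Cavin2 at 0.14 (limma adjusted p = 0.3087).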

How the data were processed

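Total RNA of the hypothalamus of 32 male mice was sequenced with a stranded paired-end protocol, per the labels' protocols. The build GRCm38 and the tools STAR 2.7.6a, DESeq2 1.28.1, R 4.0.2, FastQC, Trim Galore 0.6.2 and cutadapt 2.10 are listed, with no role or order, per the submitters' processing notes. How reads were counted, whether by strand and on which annotation, is not given in the sources used here. Values were deposited by the authors as log2 normalized counts, 1 per gene and library. Undoing the log gave whole reads for 100.0% of values within 1e-06 reads. Genes without a read carry the log2 of 0.1. CPM and CPM per kb of exon (GENCODE vM21 gene models) were computed from these reads.

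limma 3.58.1 in R 4.3.3 (statmod 1.5.0) was run on log2(normalized count + 1) with trend and robust moderation, all 4 groups in 1 fit, over genes with at least 10 normalized counts in at least 7 libraries. Tests were two-sided, with Benjamini-Hochberg adjustment over 19928 genes and a threshold of 0.05. The pseudocount makes fold changes of low genes too small. Relations used 100000 permutations, or all of them for fewer than 10 mice. The fit was checked on simulated counts in which every gene had the same spread between mice beyond counting. These held no age effect and no libraries of high meningeal sum, so the check does not bear on those.

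The members and lists were chosen with earlier results of these data known. Full values are given for members called in any comparison, the 4 of lowest p in each comparison, the 2 of highest level per length in each role and those in the 8 relations. Of other lists, called genes are named, or at most the 2 of lowest p for diet averaged over genotypes. Kdr, Abcg2, Cdh5 and Vwf were named beyond this after their values were seen, and so were Avp and the split of libraries at 300 CPM of the meningeal list. Promoter letters were read in Python 3.11.15.

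Replicate numbers mark different mice. Over 45 same-numbered pairs of libraries the deviations from the group means had a median correlation of 0.005, and 8 exceeded 0.1, so the numbers were not taken as pairs. Alternatives were 2 other pseudocounts, 2 other filters, limma-voom with and without quality weights, other scalings, and moderation with neither trend nor robust setting. Further ones were a replicate block, age as a covariate, fits of fewer groups or of 1 age, and leaving out each library.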

Additional observations from a re-analysis of the deposited data

Results flagged for a closer look

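In 15 of 144 groups of a gene and a condition, 1 mouse lay far from the others of its group by Dixon's gap test at 95%. Chance flags about 1 in 20 groups, or 7.2 of these 144. Of the 15 values, 12 came from libraries with a meningeal sum above 300 CPM.

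Slc22a8 had such a mouse in 3 groups, at 29.35 CPM in WT_CD replicate 3, 34.41 CPM in KO_CD replicate 1 and 47.79 CPM in KO_HFD replicate 2. Vtn had the same 3 mice apart, at 76.61, 92.0 and 104.8 CPM. Vwf stood at 18.18 CPM in WT_CD replicate 3 and 22.41 CPM in KO_CD replicate 1, and Acta2 at 13.69 CPM in WT_CD replicate 3. Abcb1a reached 45.08 CPM in KO_CD replicate 1 and Pecam1 19.85 CPM in KO_HFD replicate 2. Foxq1 was low in WT_HFD replicate 4, at 1.452 CPM.

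The other 3 values came from libraries with a low meningeal sum. Ocln was high in WT_CD replicate 6, at 10.46 CPM. Tjp1 and Flt1 were both low in KO_CD replicate 4, at 88.89 and 69.17 CPM.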

How the results depend on the processing

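For diet averaged over genotypes the count of members called was 1. It was 2 with limma-voom and quality weights and 2 with quantile normalization, Mfsd2a joining Apln in each (limma adjusted p = 0.03754 and 0.04513). It was 0 with age as a covariate. Leaving out single libraries gave 1 to 2 members, with Mfsd2a added without KO_CD replicate 1 (0.03693), KO_CD replicate 4 (0.0437), KO_HFD replicate 2 (0.02679) or WT_HFD replicate 8 (0.04578). Apln was called without each of the 32 libraries in turn and ran from -0.22 to -0.19. With the replicate block the count was 2 (Mfsd2a at -0.16, limma adjusted p = 0.03932), and the block changed no other count. The replicate numbers were not taken as pairs.

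For diet in wild type the count of 0 became 1 with quality weights (Apln, -0.23, limma adjusted p = 0.04332). For diet in knockout it ran from 0 to 1 over left-out libraries, with Apln called without KO_HFD replicate 4 (-0.21, limma adjusted p = 0.04775). Counts for genotype and for the interaction stayed at 0 in every alternative run.

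The relation of Acta2 and the meningeal list had r = 0.49 in the 23 low libraries (permutation adjusted p = 0.06968) and 0.384 in 7 high ones (exact permutation adjusted p = 0.4992). Of 3171 values of single members under the alternatives other than leaving out single libraries, 3166 kept their direction where called and their side of the threshold, and 186 changed sign without a call in either fit. Tagln held 0 to 8 reads a library and Aplnr as few as 5.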

Other observations

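Genes of endothelial activation, which tell of vessels that respond to inflammatory signals, had 7 of 11 tested genes above 0 for diet averaged over genotypes (median 0.091). Of the 11, 6 had an unadjusted p below 0.05, beside 11.1% of all genes, and none was called. Without the 9 libraries of high meningeal sum 7 were above 0 (median 0.033) and 2 had such a p, beside 7.98%, and with age as a covariate 9 were above 0 (median 0.14) and 4 had such a p, beside 9.48%. The lowest p values belonged to Icam1, the leukocyte adhesion molecule (0.36, limma adjusted p = 0.3134), and Ptgs2, the inducible cyclooxygenase (0.45, limma adjusted p = 0.3136). The list summed to 91.45 to 104.8 CPM in WT_CD, 90.69 to 118.2 in WT_HFD, 87.86 to 105.4 in KO_CD and 94.22 to 106.6 in KO_HFD, so the groups overlapped.

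Venous genes had 7 of 10 above 0 (median 0.072), with the venous factor Nr2f2 at 0.072 (limma adjusted p = 0.249), and arterial genes 8 of 11 (median 0.025). Basement membrane genes had 7 of 12 above 0 (median 0.050), with Nid2 at 0.24 (limma adjusted p = 0.2911) and the laminin chain Lama4 at 0.35 (limma adjusted p = 0.3624). Notch pathway genes had 6 of 12 above 0, endothelial transcription factors 7 of 16 and VEGF pathway receptors 8 of 14. Other pericyte genes had 7 of 15 above 0 (median -0.012) and other smooth muscle genes 9 of 15 (median 0.035), with none called in any of these lists.

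Astrocytes, whose endfeet cover the vessels, had 3 of 14 genes above 0 for diet averaged over genotypes (median -0.028), and Kcnj10, the endfoot potassium channel, fell by 0.11 on the log2 scale (limma adjusted p = 0.0001801). Kcnj10 was at -0.12 with age as a covariate (limma adjusted p = 0.005858) and at -0.11 without the 9 libraries (limma adjusted p = 0.00578). Its level was 375.5 to 395.9 CPM in WT_CD, 341.9 to 372.5 in WT_HFD, 361.2 to 398.8 in KO_CD and 341.4 to 392.6 in KO_HFD, without overlap between the diets in wild type. The 13 tested choroid plexus genes had 6 above 0 (median -0.0043), and the summed list was at 76.69 to 98.39 CPM over all mice. Ttr, a gene of that list, was at only 0.2882 to 4.916 CPM, so most of the sum came from its other genes. Which cells made those was not tested, so the list is an uncertain measure of choroid plexus RNA.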
